A study of Oreochromis niloticus with 24 samples.

Results

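Secreted peptide and secretory granule genes were followed in sorted gonadotrophs of Nile tilapia (Oreochromis niloticus), namely secretogranin II (scg2), secretogranin III (scg3), apelin (apln) and retbindin (rtbdn). They were chosen by name, with earlier results of these data known, and are 4 of the 2932 genes that the deposited tables hold in all. The table of males, of 2392 genes, held all 4 of them, and that of females, of 1849 genes, held scg3 and apln. Levels of scg2 and rtbdn in females were not analysed here.

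The libraries came from cells of pooled pituitaries, 20 to a pool by the labels, of sexually mature fish that carried red fluorescent protein in LH cells (LH:RFP) and green fluorescent protein in FSH cells (FSH:GFP), both transgenes being present in every fish, so that the negative fraction shares the genotype of the others. Each pool was dissociated and sorted by fluorescence (FACS) into an RFP-positive fraction of LH cells, a GFP-positive fraction of FSH cells and a negative fraction of non-fluorescent cells, and the sort was repeated 4 times for each sex, which gave 24 libraries, 12 to a table. The number of a library was taken as that of its sort, although the labels do not state this. In females, correlations between libraries did not show it either. Comparisons within a sort rest on this assumption, those of females in particular. The fractions rest on the reporter's expression, cells positive for both colours were set aside, and the negative fraction is a mixture of the remaining pituitary cells.

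The unit throughout is normalized reads (NR), a gene's reads after division by the size factor of the library. Libraries held between 69091 and 2004647 reads on the genes of their table. After division by the size factor, 3 reads, taken as the detection floor, corresponded to between 1.22 and 7.21 NR. The sort was checked on the hormone β-subunits, which show carry-over between LH and FSH cells only. In males, lhβ (listed as LOC100534501) averaged 5653 ± 2989 NR (SD, n = 4) in LH cells, and its level in FSH cells was 0.359% of that. In females lhβ averaged 1335 ± 306 NR (n = 4) in LH cells, with 0.956% of that level in FSH cells. Conversely, fshβ in LH cells stood at 0.398% of its level in FSH cells in males and at 0.109% in females.

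Peptide hormones are stored in dense-core granules, which bud from the trans-Golgi network and fuse with the plasma membrane when the cell is stimulated. Granins are acidic proteins of these granules: they aggregate with the hormones, and some are themselves cut into peptides. Secretogranin II is the precursor of secretoneurin, a peptide that stimulates LH release in goldfish, while secretogranin III binds the granule membrane and other granule cargo. Apelin is a secreted peptide ligand of a G protein-coupled receptor and is best known from blood vessels. Retbindin is a riboflavin-binding protein of the folate receptor family, described in the mammalian retina.

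In the genome assembly used by the authors, O_niloticus_UMD_NMBU, scg3 lies on linkage group 1 (13424138 to 13438305), apln on linkage group 2 (18703292 to 18725388) and rtbdn on linkage group 4 (8293882 to 8306147). None of these 3 gene spans overlapped another annotated gene. The symbol scg2 has no entry of its own in the annotation used here, which lists 2 copies, scg2a and scg2b, so that the copy behind the scg2 values is uncertain. Values are compared within a gene only, because the tables give no exon lengths.

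The tables are not a sample of all genes. Of the genes in the male and female tables, 99.21% and 98.81% had a mean in LH or FSH cells over 2 times that of the negative fraction, which is the authors' selection for enriched genes. The difference of either gonadotroph from the negative fraction was therefore used to choose every gene of the tables, these 4 included, and such a difference is no independent evidence for a gene. The comparison of LH with FSH cells was not itself a criterion, but it is not free of the selection either: a gene that entered a table through 1 gonadotroph fraction alone had to be high there, and its difference between LH and FSH cells is then partly fixed by the selection. A gene was called when its log2 fold change exceeded 1 in size with a Benjamini-Hochberg adjusted p below 0.05, in limma fitted to log2(NR + 1) over all genes of the table. All fold changes below are on this log2(NR + 1) scale.

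The choice of scaling shifts all of these comparisons. The median log2 difference over all genes was 1.05 for LH against negative and 1.39 for FSH against negative in males, 0.52 and 1.26 in females, and -0.54 and -0.96 for LH against FSH in males and females. Centring each library on the median of its table, or TMM scaling over the same genes, removes most of the offset from the negative fraction by construction. For LH against FSH cells the median was -0.16 in males and -0.53 in females after centring, and -0.15 and -0.04 with TMM scaling. In males the genes called in LH against FSH cells were 356 higher and 613 lower with the deposited scaling, and 435 higher and 369 lower after centring. In females they were 453 higher and 880 lower, against 483 and 533 after centring. Against the negative fraction, the share of higher genes among those called dropped after centring from 98.8% to 44.1% for male LH cells, from 91.0% to 46.1% for male FSH cells, from 96.2% to 40.4% for female LH cells and from 78.8% to 41.5% for female FSH cells. Where a result for 1 of the 4 genes changes its sign under these scalings, the value is given beside it.

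**Figure D1:**
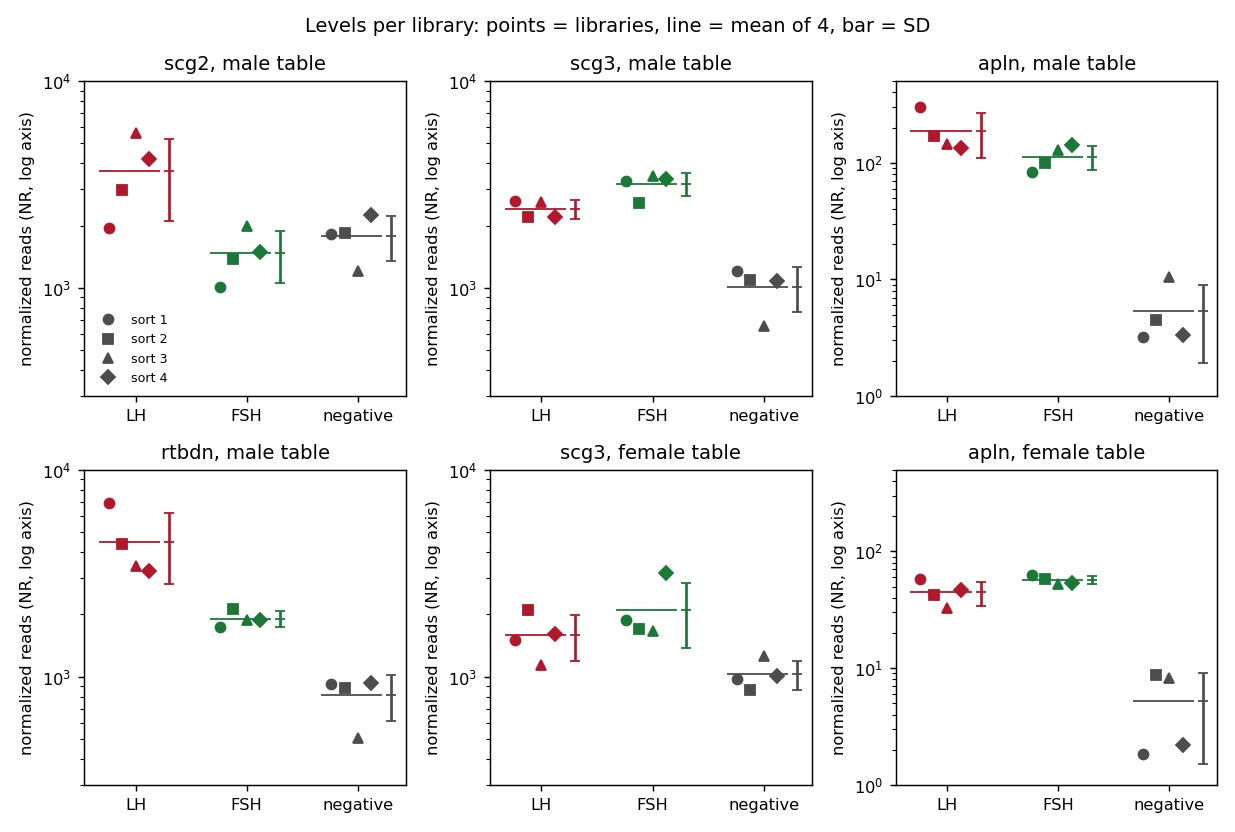
Normalized reads of each gene in each library, on a log axis, for LH, FSH and negative fractions. Symbols mark the sort number, horizontal lines the mean of 4 libraries and bars the SD. Male scg2 overlaps between all pairs of fractions, male rtbdn falls into 3 separate groups, and apln lies below 11 NR in every negative library of both sexes.

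Levels of scg2 were higher in male LH than in male FSH cells. Since its mean was 2.06 times that of negative cells in LH cells and 0.822 times in FSH cells, scg2 entered the table through LH cells alone, and this difference is given as a description. Its level in LH cells was 1957, 2992, 5603 and 4202 NR in sorts 1 to 4 (mean 3689 ± 1572, SD, n = 4). In FSH cells it was 1010.0, 1379, 2002 and 1488 NR (mean 1469.8 ± 409.8). The LH library of sort 1 fell just below the FSH library of sort 3, so the groups overlapped, yet within each of the 4 sorts LH cells were above FSH cells, by between 0.95 and 1.5 on the log2 scale. The fitted difference was 1.26 (SE 0.30, limma with Benjamini-Hochberg adjustment, adjusted p = 0.0020), and scg2 was called. It was larger after centring (1.64) and with TMM scaling (1.76).

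The negative fraction also contained scg2, at 1831.5, 1852, 1205 and 2265 NR (mean 1788 ± 437). FSH cells did not differ from it by the call used (log2 difference -0.29, SE 0.30, limma adjusted p = 0.361), although with the median-centred or TMM scaling they were lower, by -1.77 and -1.72. LH cells exceeded the negative fraction by 0.97 (SE 0.30, adjusted p = 0.0095), which missed the fold limit, and after centring the difference was -0.12. It passed the limit without LH replicate 1 (1.24) or 2 (1.04) and without negative replicate 2 (1.00) or 4 (1.10), and was 0.74 without LH replicate 3, 0.80 without negative replicate 3 and 0.56 without sort 3 as a whole (adjusted p = 0.10, limma). Of the 2392 genes of the male table, 2147 had a higher log2 difference between FSH cells and the negative fraction than scg2. The ranges of FSH and negative cells overlapped, as did those of LH and negative cells. In these bulk libraries fewer cells of a type and less RNA per cell cannot be told apart, for this gene and for those that follow.

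The scg2 levels within the LH fraction did not follow those of the other LH genes. The LH library of sort 1 had the lowest scg2 of the 4, but the highest lhβ (10131 NR against 3970.5 to 4353), rtbdn and apln. In the FSH fraction, the library of sort 3 held both the highest scg2 and the highest fshβ (66629 NR). With 4 libraries in a group these orders are descriptions only.

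The other secretogranin, scg3, was above the negative fraction in both gonadotrophs of males. Its level was 2639, 2192, 2609.5 and 2198 NR in LH cells (mean 2409.9 ± 248), the tightest of the 4 genes in this fraction with a coefficient of variation of 10.3%, against 42.6% for scg2. FSH cells held 3290.1, 2579.7, 3489 and 3349 NR (mean 3177 ± 407). The negative libraries held 1213.5, 1096, 652 and 1081 NR (mean 1011 ± 246), all below the lowest gonadotroph library.

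Against the negative fraction the log2 difference of male scg3 was 1.29 in LH cells (SE 0.21, limma adjusted p = 9.04e-05) and 1.68 in FSH cells (SE 0.21, adjusted p = 2.01e-06). Both calls were lost after centring (0.19 and 0.20) and with TMM scaling (0.23 in each). LH cells were below FSH cells in 4 of 4 sorts, by between 0.23 and 0.61, but the ranges overlapped and the fitted difference of -0.39 (SE 0.21, limma adjusted p = 0.108) was not called. After centring and with TMM scaling that difference shrank to -0.01 and -8.3e-04.

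In females scg3 followed the same order of means, with more spread. LH cells held 1498, 2107, 1142 and 1609 NR (mean 1589 ± 398), and FSH cells held 1882, 1697, 1657 and 3176 NR (mean 2103 ± 722), in which the library of sort 4 stood far above the others. The negative libraries held 979, 858, 1257 and 1012 NR (mean 1027 ± 168). The lowest LH library, of sort 3, lay below the highest negative library, of the same number. The FSH and negative libraries did not overlap.

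Female scg3 was not called in any comparison. The log2 difference from the negative fraction was 0.61 in LH cells (SE 0.24, limma adjusted p = 0.049) and -0.08 after centring. In FSH cells it was 0.99 (SE 0.24, adjusted p = 7.4e-04), just under the fold limit, passed the limit in edgeR and DESeq2 on recovered reads (1.04 in each) and without FSH replicate 1 (1.03), 2 (1.08) or 3 (1.09) or negative replicate 3 (1.10), and was -0.12 after centring and -0.43 with TMM scaling. Between LH and FSH cells it was -0.38 (SE 0.24, adjusted p = 0.134), with 0.04 after centring and 0.53 with TMM scaling. Thus the sign of these female differences depended on how the libraries were scaled.

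Apelin showed the largest difference from the negative fraction of the 4 genes. In males it was 301, 169, 146 and 134 NR in LH cells (mean 187 ± 76.9) and 82.4, 99.99, 128 and 140.3 NR in FSH cells (mean 113 ± 26.3). The negative libraries held 3.21, 4.52, 10.5 and 3.37 NR (mean 5.41 ± 3.47). Those negative values were near the detection floor, with 3 of the 4 libraries at 3 reads and the library of sort 3 at 12 reads, and every gonadotroph library lay above them.

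In male LH cells the log2 difference of apln from the negative fraction was 4.93 (SE 0.35, limma adjusted p = 1.05e-07), the third highest among the 2392 genes. In FSH cells it was 4.25 (SE 0.35, adjusted p = 4.24e-08), with 26 genes higher. Because of the low negative counts these values depend on the pseudocount: with 5 in place of 1 they were 4.19 and 3.52. Summed over 4 libraries, 554 reads in LH cells and 21 reads in negative cells gave a scaled ratio of 31 (exact 95% interval 20 to 50.4), and 554 reads in FSH cells gave a ratio of 18.5 (12 to 30.2). These intervals cover counting error only.

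Between the male gonadotrophs apln overlapped. LH cells were higher in 3 of 4 sorts, by 1.86 in sort 1 and by 0.75 and 0.19 in sorts 2 and 3, and differed by -0.06 in sort 4. The fitted difference was 0.68 (SE 0.35, limma adjusted p = 0.105) and was not called, although it passed the threshold after centring (1.06) and with TMM scaling (1.12). Apelin in FSH cells was 60.1% of its level in LH cells, while lhβ there was 0.359% of its own. The part of LH cells in the apln of the FSH fraction was not tested.

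Female gonadotrophs held apln as well. The levels were 57.5, 42.0, 32.8 and 46.2 NR in LH cells (mean 44.6 ± 10.3), and 63.2, 58.0, 52.8 and 53.4 NR in FSH cells (mean 56.9 ± 4.82). In the negative libraries they were 1.83, 8.75, 8.23 and 2.2 NR (mean 5.25 ± 3.75), from 2 to 7 reads. Every gonadotroph library lay above the negative libraries, and the female FSH fraction was the most even of all groups of apln, with a coefficient of variation of 8.48%.

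The log2 difference of female apln from the negative fraction was 3.07 in LH cells (SE 0.39, limma adjusted p = 3.16e-05), with 12 genes of the table higher, and 3.43 in FSH cells (SE 0.39, adjusted p = 2.12e-07), with 64 genes higher. With a pseudocount of 5 these were 2.33 and 2.67. From summed reads, 184 against 16 gave a ratio of 10.2 (exact 95% interval 6.10 to 18.2) for LH cells and 221 against 16 gave 12.4 (7.49 to 22.1) for FSH cells. LH cells were lower than FSH cells in 4 of 4 sorts, by between 0.13 and 0.67, with overlapping ranges and a fitted difference of -0.37 (SE 0.39, limma adjusted p = 0.371), which became 0.06 after centring and 0.60 with TMM scaling.

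Since apelin is also made by endothelial cells, markers of these cells were read beside it. Of 25 endothelial symbols the male table held 2, cldn5 and s1pr1, with a summed level of 42.7 to 60.4 NR in LH cells, 17.1 to 40.8 NR in FSH cells and 17.9 to 42.8 NR in negative cells. The 2 markers ran in opposite directions: s1pr1 averaged 48.0 NR in LH and 1.80 NR in FSH cells, while cldn5 averaged 2.27 NR in LH and 23.2 NR in FSH cells. The mean of s1pr1 was 2.04 times that of negative cells in LH cells and 0.076 times in FSH cells. For cldn5 it was 1.04 and 10.6 times. Each thus entered the male table through 1 gonadotroph fraction alone, and these directions are partly fixed by the selection. The female table held 1, ramp2, at 5.25 to 64.7 NR in LH cells, 0 to 2.11 NR in FSH cells and 9.13 to 21.0 NR in negative cells. In female FSH cells ramp2 was listed at 0 in 3 of 4 libraries. Its mean was 2.85 times that of negative cells in LH cells and 0.037 times in FSH cells. It thus entered the table through LH cells alone, and its low level in FSH cells is partly fixed by the selection. The part of endothelial cells in the apln levels of LH and FSH cells was not tested.

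Of the macrophage list, csf1r, cd74 and marco were called higher and aif1l lower in female LH than FSH cells. The first 3 were below negative cells in FSH cells and so entered the table through LH cells alone. Female aif1l averaged 0.896 times negative cells in LH cells and entered through FSH cells alone. The paper lists aif1l (allograft inflammatory factor 1-like) among genes shared by rat gonadotrophs and tilapia FSH cells. Its levels are therefore not read as a measure of macrophages. The female table held 4 of 29 macrophage symbols (csf1r, cd74, marco and aif1l), with summed levels of 3271 to 7567 NR in LH cells, 579 to 1087 NR in FSH cells and 1653 to 2580 NR in negative cells, sums made up mostly of cd74, and csf1r was at 0 in all 4 female FSH libraries. The remaining gene of the list, aif1l, averaged 17.6 NR in LH, 48.5 NR in FSH and 19.6 NR in negative cells. In males only aif1l was held, at 28.1 to 45.8 NR in LH cells, 70.2 to 88.7 NR in FSH cells and 20.2 to 30.3 NR in negative cells. The part of macrophages in the scg3 and apln levels of female LH cells was not tested.

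Retbindin was graded across the male fractions, LH cells being highest and negative cells lowest. The LH libraries held 6921, 4371, 3429 and 3229 NR (mean 4487 ± 1697), of which sort 1 was the highest. The FSH libraries held 1731, 2133, 1889 and 1885 NR (mean 1909.6 ± 166), with a coefficient of variation of 8.71%. The negative libraries held 926, 884, 508 and 930.0 NR (mean 812 ± 204), and no group overlapped another.

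Retbindin in LH cells exceeded the negative fraction by 2.44 on the log2 scale (SE 0.25, limma adjusted p = 3.06e-06), and 100 genes of the table had a larger difference. In FSH cells it exceeded the negative fraction by 1.27 (SE 0.25, adjusted p = 2.04e-04), a value that became -0.21 after centring and -0.19 with TMM scaling. LH cells exceeded FSH cells by 1.17 (SE 0.25, adjusted p = 9.25e-04), and by between 0.78 and 2.00 in 4 of 4 sorts. The LH library of sort 1 carried part of this difference: without it the value was 0.94 and without all of sort 1 it was 0.89, and both missed the fold limit.

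**Figure D2:**
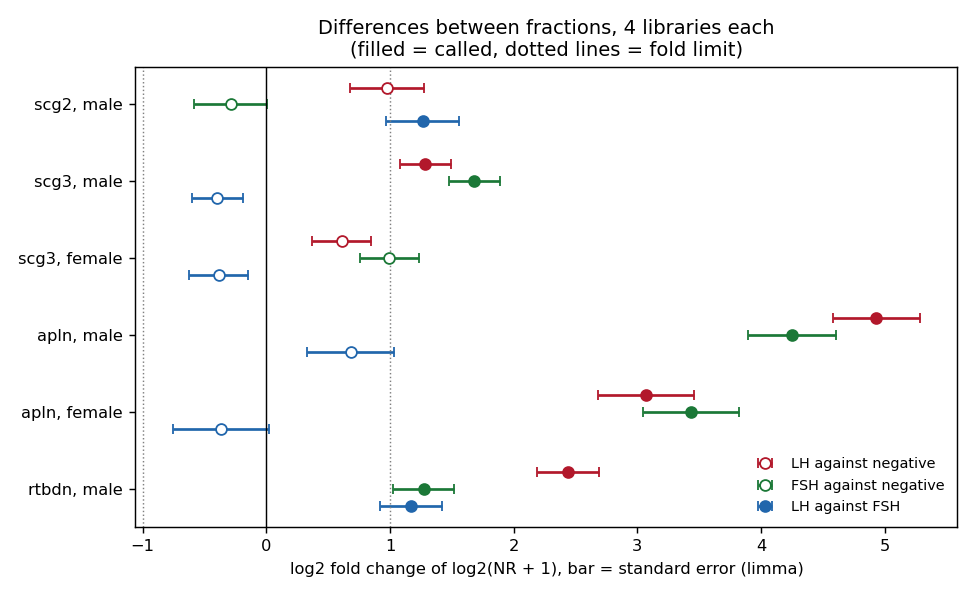
Log2 fold changes with their standard errors (limma, 4 libraries in each fraction), filled where called. Apelin lies furthest from 0 against the negative fraction in both sexes, scg2 and rtbdn lie above 1 in LH against FSH cells, and scg3 lies just below 0 in that comparison. With median-centred libraries the sign changes for scg2 and female scg3 in LH cells and for rtbdn and female scg3 in FSH cells against negative, and for female scg3 and apln in LH against FSH cells.

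Counted together, 3 of the 4 genes were called higher in male LH cells than in negative cells, where 51.2% of all genes of the table were, and 3 of 4 were called higher in male FSH cells, where 75.8% were. Groups did not overlap for 3 of 4 genes in each of these comparisons, against 55.0% and 72.1% of all genes. Since the tables were selected on these contrasts, nothing is read from these counts. Between male LH and FSH cells, scg2 and rtbdn, 2 of the 4 genes, were called higher in LH cells, where 14.9% of all genes were, while 25.6% of all genes were called lower. As scg2 entered the table through LH cells alone, its call is partly fixed by the selection, and nothing is read from this count either. Only rtbdn was separate between these fractions, as were 14.7% of genes in that direction.

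In females, 1 of the 2 genes, apln, was called higher in LH cells than in negative cells (28.5% of all genes) and in FSH cells than in negative cells (69.7%). Groups did not overlap for 1 of 2 genes between LH and negative cells (28.2% of all genes) and for 2 of 2 between FSH and negative cells (65.9%). Between female LH and FSH cells limma called 0 of the 2 genes in either direction, with 24.5% of all genes called higher and 47.6% called lower. At an unadjusted p below 0.05 the number was also 0, and edgeR and DESeq2 on recovered reads, with the authors' size factors, likewise called 0.

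Males and females were set against each other only as differences of fold changes, since the tables had been normalized separately. For the 2 genes held in both tables this was tested with an interaction term over the 1309 shared genes. The LH against negative difference of apln was 1.86 log2 units larger in males (SE 0.54, limma adjusted p = 0.025). In this comparison 12.8% of the shared genes were called at an adjusted p below 0.05, 163 of 167 of them larger in males, and the median of all shared genes was 0.53. The call for apln was lost after centring (1.30, adjusted p = 0.30), with TMM scaling (1.13, adjusted p = 0.453) and with edgeR on recovered reads (1.81, adjusted p = 0.061). It was also lost without sort 1, 2 or 3 of both sexes (1.89, 1.55 and 1.89), and without 1 library in 3 cases: male LH replicate 1 (1.61), female LH replicate 3 (1.73) or female negative replicate 3 (1.60).

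The remaining sex differences were not called. For apln they were 0.81 for FSH against negative (SE 0.54, limma adjusted p = 0.458, with 1.38% of shared genes called) and 1.05 for LH against FSH cells (SE 0.54, adjusted p = 0.449, with 0.306% called). For scg3 they were 0.68 for LH against negative (SE 0.33, adjusted p = 0.168), 0.69 for FSH against negative (SE 0.33, adjusted p = 0.266) and -0.01 for LH against FSH cells (SE 0.33, adjusted p = 0.984). The last one changed sign between settings, 0.01 in edgeR and DESeq2 with the authors' size factors.

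In males the negative library of sort 3 was low over the genes of the table as a whole, with a median of 33.4 NR. The other male negative libraries had medians of 39.3 to 46.1 NR. The library of sort 3 held the lowest scg2, scg3 and rtbdn of its group and the highest apln, together with the highest fshβ (184 NR) and the lowest lhβ (2.64 NR). Without this library the log2 differences of male LH cells were 0.80 for scg2, 1.09 for scg3, 5.26 for apln and 2.23 for rtbdn, so that no call changed.

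Single granins were called in opposite directions between the gonadotrophs. Of 9 granin symbols searched, the male table held scg2, scg3 and scg5 and the female table held chgb, scg3 and scg5. The gene scg5 encodes the 7B2 protein, a chaperone of prohormone convertase 2. In males scg5 was 1389.6, 885, 803 and 646 NR in LH cells, against 2368, 2199.7, 3036 and 2896 NR in FSH cells, so that LH cells lay below FSH cells in every library. The log2 difference was -1.54 (SE 0.27, limma adjusted p = 1.54e-04), opposite in sign to that of scg2.

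In females scg5 was again lower in LH cells, at 349, 299, 128 and 302 NR, than in FSH cells, at 1499, 1212, 665 and 1268 NR. The log2 difference was -2.14 (SE 0.30, limma adjusted p = 3.13e-06), with -2.37 to -2.02 in the 4 sorts. The mean of female scg5 was 1.40 times that of negative cells in LH cells and 6.04 times in FSH cells. It thus entered the table through FSH cells alone, and this difference is partly fixed by the selection. Chromogranin B (chgb), a major granule matrix protein, was held only by the female table and was higher in LH cells, at 50.2, 56.4, 47.4 and 265 NR against 18.3, 12.8, 31.2 and 42.6 NR in FSH cells. Its log2 difference of 1.67 (SE 0.45, adjusted p = 0.0023) rested partly on the LH library of sort 4 and was 1.08 without it. DESeq2 gave chgb no adjusted p, so that it was not called there. The mean of chgb was 2.67 times that of negative cells in LH cells and 0.668 times in FSH cells, so that it entered the table through LH cells alone. These directions of scg5 and chgb were the same after centring and with TMM scaling.

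**Figure D3:**
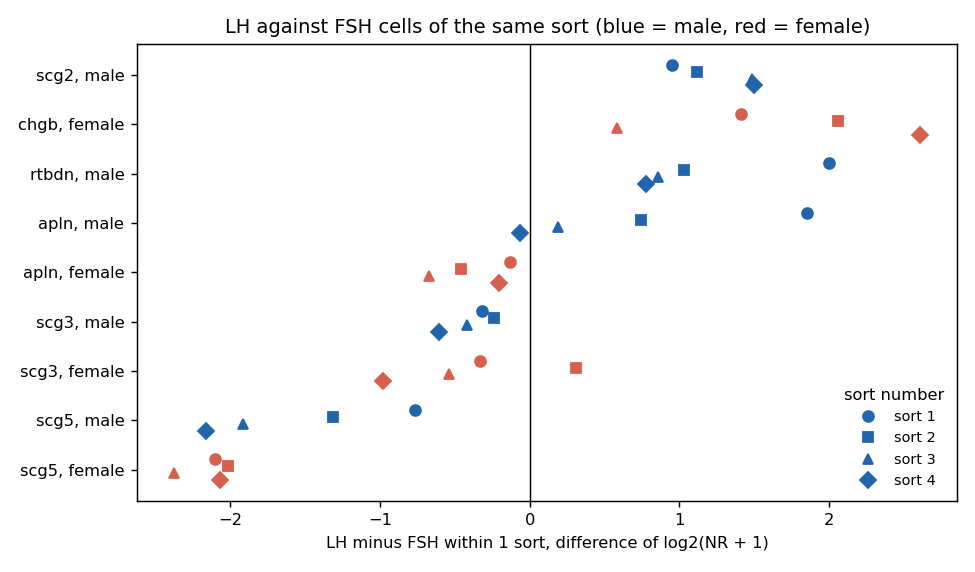
Difference in log2(NR + 1) between LH and FSH cells of the same sort, as taken from the library number, 4 sorts per sex. Male scg2 and rtbdn and female chgb lie to the right of 0 in 4 of 4 sorts, and scg5 lies to the left in 4 of 4 sorts of each sex. Values of scg3 lie between -0.98 and 0.31 and those of female apln between -0.67 and -0.13. Centring the libraries changes the sign of the female means of both genes. Male apln runs from -0.06 in sort 4 to 1.86 in sort 1.

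As a family, 1 of 3 granins was called higher and 1 lower in LH against FSH cells in each sex, with a median log2 difference of -0.39 in males and -0.38 in females, beside -0.54 and -0.96 for all genes. Of all genes 14.9% were called higher and 25.6% lower in males, and 24.5% and 47.6% in females, so that counts over 3 genes show nothing particular to granins. Against negative cells, scg3 and scg5 were called higher in both gonadotrophs of males (2 of 3, with 51.2% and 75.8% of all genes in LH and FSH cells), and scg5 alone in FSH cells of females (1 of 3, with 69.7% of all genes).

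Enzymes that cut and finish prohormones were next read from a list of 14 symbols, of which 5 were held by the table of males and 4 by that of females. Prohormone convertase 1 (pcsk1) and the amidating enzyme pam were called lower in LH than in FSH cells in both sexes. For pcsk1 the log2 difference was -1.27 (SE 0.29, limma adjusted p = 0.0017) in males and -1.52 (SE 0.30, adjusted p = 1.32e-04) in females, and for pam -1.11 and -1.57. Prohormone convertase 2 (pcsk2) was called lower in females (-2.09) and not in males (-0.73, limma adjusted p = 0.152). In LH cells pam averaged 1.90 times negative cells in males and 1.10 times in females, and pcsk2 0.556 times in females. In those tables they entered through FSH cells alone, so these differences are partly fixed by the selection. Carboxypeptidase E (cpe) was not called in either sex (-0.65 and -0.95), nor was furin in males (0.86). The list's median was -0.73 in males, with 2 of 5 called lower, and -1.54 in females, with 3 of 4 called lower, where 25.6% and 47.6% of all genes were. After centring the calls were 1 higher and 0 lower in males and 3 lower in females, and with TMM scaling 1 lower in females. Of the 2392 genes of the male table, 435 were called higher and 369 lower after centring. Of the 1849 of the female table, 483 were higher and 533 lower after centring, and 513 and 292 with TMM scaling. The male calls of pcsk1 and pam were lost after centring (-0.89 and -0.73), that of pam also without FSH replicate 3 (-0.98), and the female calls of both with TMM scaling (-0.61 and -0.64). Male pcsk2 was called without LH replicate 1 (-1.07) or FSH replicate 1 (-1.08), male furin after centring (1.24), and female cpe without LH replicate 2 (-1.08) or 4 (-1.02) or FSH replicate 2 (-1.0) or 3 (-1.15).

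Males had 21 measured genes, and females 15, of 68 symbols of the granule membrane and exocytosis. In LH against FSH cells, 2 of 21 were called higher and 5 lower in males (median -0.65), and 2 of 15 higher and 8 lower in females (median -1.20). Of all genes 14.9% were called higher and 25.6% lower in males, and 24.5% higher and 47.6% lower in females. The counts became 4 higher and 4 lower in males after centring or with TMM scaling, and in females 3 higher and 4 lower after centring and 4 higher and 2 lower with TMM scaling. For all 2392 male genes they were 435 and 369 after centring, and 440 and 359 with TMM scaling. For all 1849 female genes they were 483 and 533 after centring, and 513 and 292 with TMM scaling. Among the female genes of the list called lower with the deposited scaling, syn3, ptprn, unc13a, syt1 and rab27b averaged 0.947, 0.939, 1.16, 1.19 and 1.46 times negative cells in LH cells. They entered the female table through FSH cells alone. Female slc18a2, called higher, averaged 2.67 times negative cells in LH and 0.812 times in FSH cells. It entered through LH cells alone, so that these female calls are partly fixed by the selection. The vesicular monoamine transporter slc18a1 was higher in LH cells in both sexes, with log2 differences of 3.39 (SE 0.35, limma adjusted p = 8.85e-07) in males and 3.85 (SE 0.43, adjusted p = 1.52e-07) in females. Its mean level was 81.0 NR in LH and 6.72 NR in FSH cells of males, and 80.8 NR and 4.42 NR in females. Like syn2 in males, it was below the negative fraction in FSH cells and so entered the tables through LH cells alone.

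The largest difference in males was that of synapsin II (syn2), a vesicle-associated phosphoprotein, at 37.0, 166, 239 and 173 NR in LH cells against 4.68, 10.2, 1.23 and 7.19 NR in FSH cells (log2 difference 4.45, SE 0.53, limma adjusted p = 3.84e-06). Granuphilin (sytl4), which docks granules at the plasma membrane through Rab27, was lower in LH cells, at a mean of 32.6 NR against 245 NR in FSH cells of males (-2.99, SE 0.40) and 13.5 NR against 101 NR in females (-2.79, SE 0.43). The priming factor unc13c was lower in LH cells of both sexes (-2.11 in males and -1.34 in females), as was otoferlin (otof), a calcium sensor of exocytosis in hair cells (-1.51 and -2.32). The female call of unc13c was lost after centring (-0.91) and with TMM scaling (-0.41). The paper lists another otoferlin gene, otofb, as enriched in male LH cells, and it was not read here. In LH cells the means of sytl4 and unc13c were 1.36 and 1.86 times those of negative cells in males. In females they were 1.60 and 1.57 times. Both genes thus entered the tables through FSH cells alone, and their LH against FSH differences are partly fixed by the selection. Against negative cells, 13 of 21 genes of this list were called higher in male LH cells and 18 of 21 in male FSH cells, and 5 of 15 and 11 of 15 in female LH and FSH cells, where 51.2%, 75.8%, 28.5% and 69.7% of all genes were, from tables selected on that contrast. After centring these counts were 2, 6, 1 and 3. Of all genes, 128 and 287 of 2392 were then called higher in male LH and FSH cells. In female LH and FSH cells, 82 and 305 of 1849 were.

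**Figure D4:**
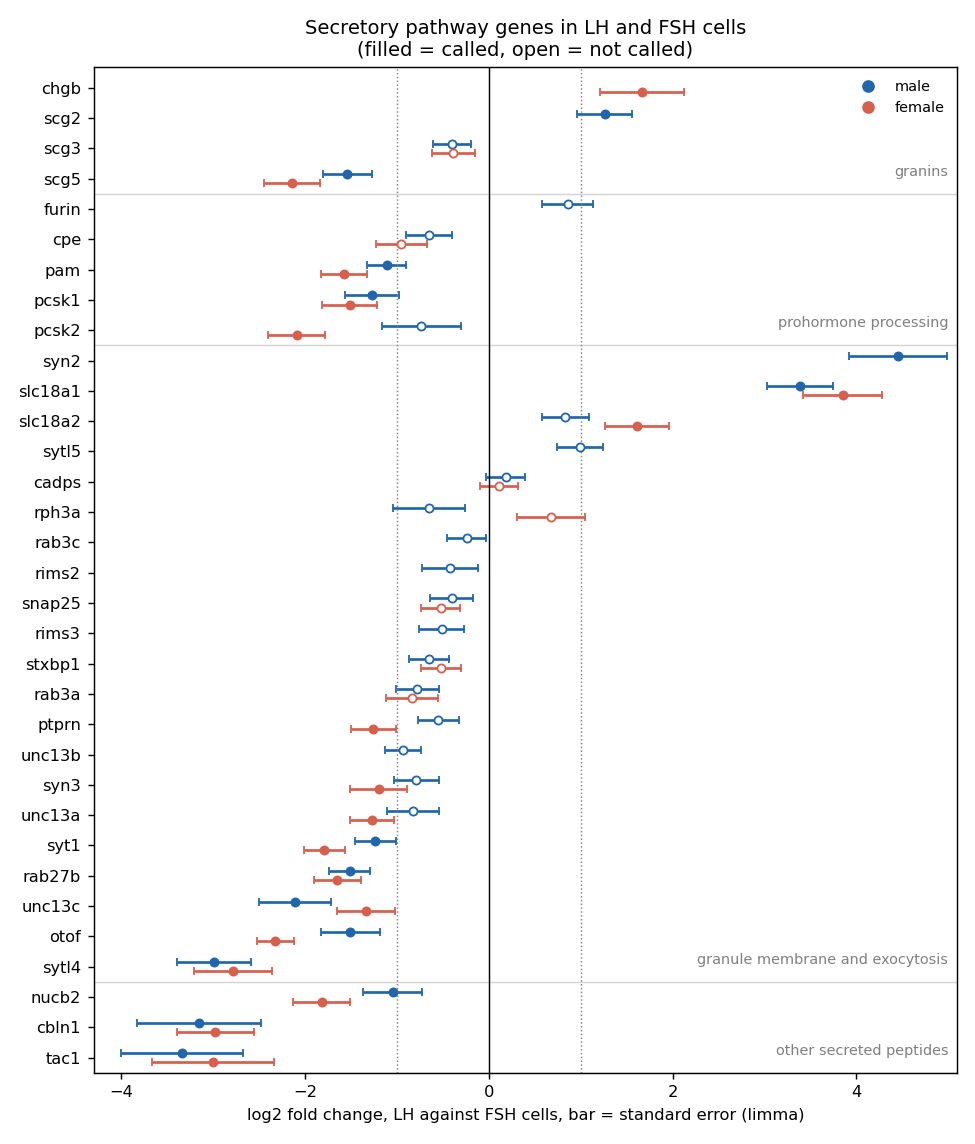
Log2 fold change of LH against FSH cells with its standard error for every measured gene of 4 lists, males in blue and females in red, filled where called. The granins scg2 and chgb lie to the right and scg5 to the left, slc18a1 and syn2 lie above 3, and sytl4, tac1 and cbln1 lie near -3. Centring the libraries raised the median of all genes in this comparison by 0.38 in males and 0.43 in females, so that the sign of values within that distance below 0 depends on the scaling.

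Other secreted peptides were looked for with a list of 89 symbols, of which each table held the same 3: tac1, the precursor of substance P, nucb2, the precursor of nesfatin, and cbln1, a secreted synaptic organizer. All 3 were called higher in FSH cells than in negative cells and lower in LH than in FSH cells, in both sexes, where 75.8% and 69.7% of all genes were called higher in FSH than in negative cells and 25.6% and 47.6% lower in LH than in FSH cells, in males and females. Both tac1 and cbln1 were below the negative fraction in mean in LH cells (0.61 and 0.507 times in males, 0.823 and 0.477 times in females) and entered the tables through FSH cells alone. So did female nucb2, whose mean in LH cells was 1.33 times that of negative cells. After centring, 0 of these peptides in males and 3 in females were called higher in FSH than in negative cells, and with TMM scaling 1 and 0. Of all genes, 287 of 2392 in males and 305 of 1849 in females were then called higher after centring. With TMM scaling 324 and 201 were. The LH against FSH differences were -3.34 and -3.0 for tac1, -1.05 and -1.82 for nucb2, and -3.15 and -2.97 for cbln1 in males and females, respectively. Male FSH and negative libraries overlapped for tac1 and cbln1. In sort 1, male tac1 was lower in FSH than in negative cells (14.0 against 18.2 NR). Its LH minus FSH difference was -0.50 there, against -4.86 to -3.66 in the other sorts. Male LH libraries held 2 to 10 reads of tac1 and 0 to 11 reads of cbln1, near the detection floor. In males nucb2 missed the fold limit after centring (-0.67) and without LH replicate 2 (-0.99) or 4 (-0.97) or FSH replicate 3 (-0.65). Apelin receptors were searched with 4 symbols and riboflavin and folate partners with 9, and apart from rtbdn itself the tables held none of these symbols. Genes listed under LOC names were not searched.

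Genes with the most similar profile were sought over the 12 libraries of a table, as the smallest root mean square difference in log2 level after each gene was centred on its own mean. For scg2 the closest of 2319 male genes with a mean of at least 10 NR were syt16 (0.25), of the synaptotagmin family, LOC100696093 (0.26) and tent5b (0.29), against a median of 1.08 over all genes. Closest to scg3 were LOC100690057 (0.13), LOC100700952 (0.13) and LOC100691451 (0.14) in males, and LOC100705144 (0.12) and uchl1 (0.18) were among the closest in females.

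For apln, whose negative values rest on few reads, the closest genes were more distant. They were LOC100690915 (0.66), the estrogen receptor gene esr2 (0.68) and the transcription factor gene hnf4a (0.70) in males, and LOC100691206 (0.57), hnf4a (0.60) and the androgen receptor gene ar (0.65) in females, so that hnf4a was among the 3 closest in both sexes. Closest to rtbdn were LOC100691832 (0.21), LOC100708774 (0.24) and LOC100691563 (0.28). Among the 4 genes themselves the smallest difference in males was that of scg3 and rtbdn (0.72), with scg3 ranked 364 by likeness to rtbdn. The largest was that of scg2 and apln (2.16), with apln ranked 2245 by likeness to scg2. Ranks depend on the gene they start from: rtbdn ranked 155 by likeness to apln, but apln ranked 1963 by likeness to rtbdn (1.43). These are descriptions, and the libraries that carry them share sort and depth.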

How the data were processed

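RNA of sorted pituitary cells was sequenced in 24 libraries, 3 fractions of 4 sorts for each of 2 sexes. The authors inspected reads with FastQC and trimmed them with Trim Galore. Mapping to O_niloticus_UMD_NMBU was done with STAR, ribosomal and bacterial RNA was filtered out, and unique alignments were counted on annotated genes. The deposited signal is in normalized reads (NR), which the authors obtained by dividing reads by a DESeq2 size factor for each library, in 1 table per sex of genes enriched against the negative fraction. Each value times its size factor came out whole (100% within 0.01), so reads were recovered. Further deposited tables hold the authors' own log2 fold changes and p-values of LH or FSH against negative libraries, and were not used.

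In the male table each gene name stands 1 line below its values and was moved. Across the 1309 genes shared with the female table, the correlation of male and female mean levels was then 0.955, 0.978 and 0.959 in LH, FSH and negative cells, against 0.955, 0.477 and 0.827 as printed. In the annotation (RefSeq, O_niloticus_UMD_NMBU) 2008 male and 1579 female names were matched directly, 5 in each by synonym, and 379 and 265 were not matched.

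Log2(NR + 1) was fitted with limma 3.58.1 (R 4.3.3, mean-variance trend), in 1 model per table with the 3 fractions, and with Benjamini-Hochberg adjustment over all genes of the table. Sex differences were interaction terms over the shared genes, with no fold limit and an adjusted p threshold of 0.05. The fit was tested on simulated data. Alternatives were pseudocounts of 0.5 and 5, a filter at a mean of 10 NR, centring on the median, no trend, sort number as a block, edgeR 4.0.16 with the authors' or TMM scaling, DESeq2 1.42.0, no fold limit, and leaving out each sort or library. Libraries with the same number were treated as 1 sort, whose 3 fractions were taken from 1 pool of pituitaries. The labels do not state that equal numbers mean the same sort. Same-numbered deviations correlated from 0.154 to 0.503 between male LH and FSH cells, from 0.112 to 0.416 between male LH and negative cells and from 0.008 to 0.322 between male FSH and negative cells, and from -0.280 to 0.185 in the female pairs. Pairs of different numbers reached 0.170 in males and 0.348 in females. In females these correlations do not show that equal numbers share a sort.

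The text names the 4 genes, the hormone subunits that check the sort, the 3 genes most like each of the 4 (1 of them is not reported here), and genes of fixed lists by their counts, with values for the 4 of largest LH against FSH difference in each table among the granin, processing, exocytosis, apelin and folate lists, the 4 genes themselves aside. The granins, the processing enzymes and the other secreted peptides are described in full beyond that rule, and were chosen after their values were seen. The 4 genes and all lists were chosen with earlier results of these data known. Of the marker lists of other cells, 0 of 18 vessel wall and 0 of 11 folliculostellate symbols stood in either table, and of 9 symbols of other hormone cells only pcsk2 did. All lists were matched by symbol only, while 1345 of 2392 male and 1090 of 1849 female names were LOC names. A listed gene under such a name was missed, so a missing symbol does not mean a missing gene. The paper gives col5a2, a vessel wall symbol, under a LOC name among its top female LH genes. Sorts are separate pools of fish, but all fish came from 1 tank.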

Additional observations from a re-analysis of the deposited data

Results flagged for a closer look

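Of 27 groups of 4 libraries checked for a value far from the rest, 3 passed Dixon's 95% limit, where chance passes about 1 in 20. Male negative replicate 3 held 508 NR of rtbdn against 884 to 930.0 NR in the other negative libraries. Female FSH replicate 4 held 3176 NR of scg3 against 1657 to 1882 NR. Female LH replicate 4 held 265 NR of chgb against 47.4 to 56.4 NR.

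Differences between the sexes in LH against negative cells, all larger in males, passed an adjusted p of 0.05 in limma for 8 of 28 genes tested among the 4 genes, the secretory lists and the hormone subunits, as they did for 12.8% of the 1309 shared genes. These were cga (1.98), apln (1.86), pcsk2 (2.00), scg5 (1.44), ptprn (1.10), syt1 (1.08), snap25 (0.98) and cadps (0.92), beside a median of 0.53 over the shared genes. After centring and with TMM scaling, none of the 7 other than cga passed, with values of 0.35 (cadps) to 1.44 (pcsk2) after centring. The difference of cga was not read under these scalings. Of the 1309 shared genes, 7 were called larger in males after centring and 6 with TMM scaling.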

How the results depend on the processing

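After centring, genes called numbered 290, 622, 203 and 735 (male LH, male FSH, female LH, female FSH against negative; 1240, 1993, 548 and 1636 as reported), and 13 and 8 for the sex differences of LH and FSH against negative (167 and 18). With TMM scaling they numbered 275, 640, 208 and 651, with 805 for female LH against FSH (1333), and 11 and 10 for the sex differences. Without trend the sex difference of FSH against negative gave 11, with the replicate block 40 and in DESeq2 63, and that of LH against FSH gave 14 in DESeq2 (4 as reported). The block changed no call of the 4 genes, nor any count of calls by over 1.5 times other than that 40. Male LH against negative for scg2 was -0.12 after centring, 1.05 in edgeR and DESeq2 (past the fold limit), and 0.97 without a fold limit. For scg3 it was 0.19 after centring and 0.23 with TMM. Male FSH against negative was -1.77 and -1.72 for scg2, 0.20 and 0.23 for scg3, and -0.21 and -0.19 for rtbdn, after centring and with TMM respectively. Male LH against FSH for apln was 1.06 and 1.12. Female scg3 was -0.080 after centring and 0.61 without a fold limit in LH against negative, -0.12 (centring), -0.43 (TMM), 1.04 (edgeR and DESeq2) and 0.99 (no fold limit) in FSH against negative, and 0.043 and 0.53 in LH against FSH, where apln was 0.060 and 0.60. The sex difference of LH against negative for apln was 1.30 after centring, 1.13 with TMM and 1.81 in edgeR, and that of LH against FSH for scg3 was 0.0066 in edgeR and 0.0069 in DESeq2. Leaving out 1 sort or library at a time gave 0.56 to 1.27 for male scg2 in LH against negative cells, 0.89 to 1.30 for rtbdn in LH against FSH cells, 0.77 to 1.19 for female scg3 in FSH against negative cells, 1.55 to 2.19 for the sex difference of apln, -0.23 to 0.17 for that of scg3 in LH against FSH cells, and 8 to 234, 3 to 47 and 2 to 9 genes called for the sex differences of LH against negative, FSH against negative and LH against FSH. The lowest of these counts, 8 and 3, came without replicate 3. The causes were not tested. Near the detection floor, depth limits apln in negative cells, at 2 to 12 reads.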
